A study of Rattus norvegicus with 3 samples.

Results

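Ribosome biogenesis and nucleolar genes were examined in NR8383, an established rat alveolar macrophage line. The list held 41 genes that encode nucleolar proteins, rRNA processing factors or RNA polymerase I subunits, and genes entered it by name and not by their values. The array annotation named probes for 37 of them, with 50 probes, among 15924 named genes in all. Npm3, Rrp1, Rrp12 and Tcof1 had no probe under those names and were not analysed here.

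The groups were cells exposed for 24 h to CNT-2, cells exposed for 24 h to CNT-1, and the control at 24 h. CNT-2 and CNT-1 are 2 kinds of single-wall carbon nanotubes free of impurities, given at 0.1 mg/mL in 1 mg/mL bovine serum albumin. The labels do not say how the 2 nanotubes differ. The control is labelled once as untreated and once as an albumin solvent control, so whether it held albumin is unsettled. All 3 groups were the same cell line, grown in medium with serum that was then replaced by the nanotube solutions. They model a proliferating line and not macrophages taken from a lung. Each group had 1 column of values from 1-colour Agilent arrays. The design text names an n of 4 and every sample carries the replicate number 4, so a column may be 1 array or a mean. No difference below therefore has a replicate check, no p-value was calculated, and "higher" and "lower" describe these columns only.

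Ribosomes are built in the nucleolus. RNA polymerase I transcribes the long rRNA precursor, small nucleolar ribonucleoproteins (snoRNPs) modify it base by base, and assembly factors fold and cut it while ribosomal proteins are added. The precursor is then divided between the small (40S) and the large (60S) subunit. Growing cells devote much of their transcription to this pathway, and the transcription factor MYC is a known activator of many of its genes. In alveolar macrophages, as in other cells, its output follows growth and nutrient signals.

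The deposited values are relative to a baseline set for each probe, on a scale presumed to be log2, so they hold differences and not expression levels. Levels of marker genes could therefore not be used to check the cell type. Column medians over all probes were 0.064 for CNT-2, -0.045 for CNT-1 and 0.014 for control. In CNT-2 the 10 spike-in probes, which report added RNA, lay 0.23 ± 0.10 (SD over probes) above control, whereas in CNT-1 they lay at -0.046 ± 0.073. The array's DCP control probes numbered 6 and above averaged -0.18 (7 probes) in CNT-2 minus control, and those numbered 0 to 5 averaged 0.22 (11 probes). This gap moves with CNT-2, and its part in the values below was not tested. Markers of lymphoid cells, neutrophils, epithelium, endothelium and fibroblasts, 19 in all, had a median of -0.31 in CNT-2 minus control, with a range of -1.73 to 2.56. In CNT-1 minus control their median was -0.18, with a range of -1.20 to 1.61. The 13 markers of alveolar macrophages had a median of 0.073 in CNT-2 minus control, with a range of -2.24 to 3.96. In CNT-1 minus control these 13 had a median of -0.095, with a range of -1.46 to 0.20. The part of these markers in the values below was not tested either.

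The comparison of CNT-2 with control asked how the nanotube exposure changed the expression of these genes. Most nucleolar genes lay modestly lower in CNT-2. The median over the 37 genes was -0.24 in CNT-2 minus control, against 0.041 over all genes. Of the 37 genes, 26 lay below 0, which was 70.3%, against 46.4% of all genes, and 28 lay below the median of all genes, against 50.0% of all genes. The lowest were Rrs1, Utp20, Fbl, Polr1b and Nop10, between -0.86 and -0.67, and the highest were Nop14, Utp18 and Ddx56, between 0.35 and 0.43.

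In the values as deposited, no nucleolar gene differed 2-fold. At least 1 log2 unit lower were 0 of 37 genes, against 6.56% of all genes, and at least 1 log2 unit higher were 0 of 37, against 10.1% of all genes. With a threshold of 0.5 log2 units, 9 of 37 genes were lower, a share of 24.3% against 16.1% of all genes. On the higher side at that threshold were 0 of 37, against 23.4% of all genes. Regardless of sign, the median size of the difference was 0.30, against 0.37 over all genes. The probes of single genes differed among themselves by a median SD of 0.19 over the whole array, so a difference of that size in a single gene lies within ordinary probe spread.

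The median of the nucleolar genes stayed below 0, and below the median of all genes, under every scaling of the columns that was tried. Centring on the 75th percentile moved the median over all genes in CNT-2 minus control to -0.27, and centring on the spike-in probes moved it to -0.20. These shifts act on all genes alike, and relative to the median of all genes the nucleolar median was -0.28 under each of them. With 75th percentile centring 4 nucleolar genes, Rrs1, Utp20, Fbl and Polr1b, were at least 1 log2 unit lower, beside 11.5% of all genes. With spike-in centring 3 were, Rrs1, Utp20 and Fbl, beside 10.2% of all genes. Quantile normalization, which gives the 3 columns 1 shared distribution, reduced it to -0.068.

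**Figure D1:**
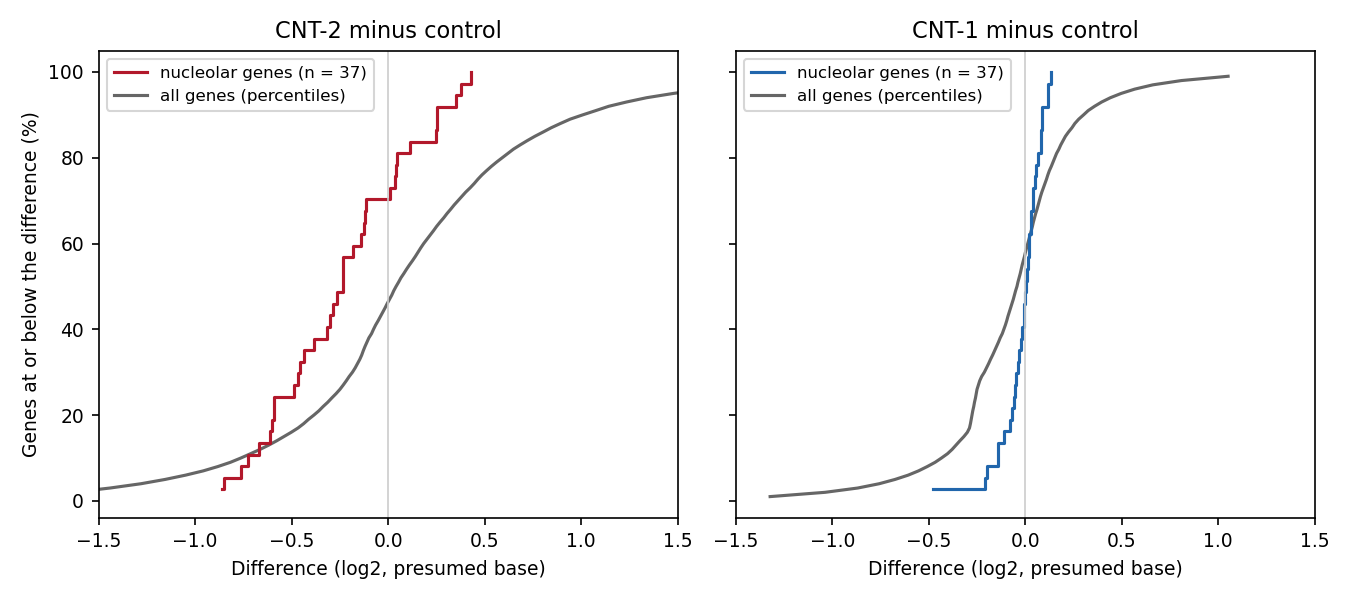
Cumulative share of genes (y axis, percent) at or below each difference (x axis, log2 with presumed base) for CNT-2 minus control (left panel) and CNT-1 minus control (right panel), with the 37 nucleolar genes as coloured steps and all 15924 genes as grey curves drawn through their percentiles. The CNT-2 steps lie to the left of the grey curve over most of the range and end at 0.43, whereas the CNT-1 steps rise steeply around 0, from -0.48 to 0.13.

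In the order of the pathway, the RNA polymerase I subunits were split. Polr1b, which encodes the second largest subunit, had -0.72 in CNT-2, -0.19 in CNT-1 and 0.006 in control, a difference of -0.73 in CNT-2 minus control and -0.20 in CNT-1 minus control. Polr1a, which encodes the largest subunit, had -0.18 in CNT-2, -0.060 in CNT-1 and 0.080 in control. Both exposed columns lay below control for this pair of catalytic subunits, and CNT-2 lay lowest. Polr1c, a subunit shared with RNA polymerase III, lay at 0.11 ± 0.052 (probe SD, 2 probes) in CNT-2 minus control. Polr1e, an accessory subunit, had 0.26 in CNT-2, 0.066 in CNT-1 and 0.002 in control. The last 2 subunits thus lay above control in CNT-2, but both lay below it with 75th percentile centring, at -0.20 for Polr1c and -0.061 for Polr1e.

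Most snoRNP proteins were low in CNT-2. Box C/D particles guide 2'-O-methylation of rRNA. Their methyltransferase, fibrillarin, is encoded by Fbl, which had -0.76 in CNT-2, -0.057 in CNT-1 and 0.001 in control. Nop56, a scaffold protein of the particle, had -0.59 in CNT-2 and 0.002 in CNT-1, and the difference from control was -0.59 ± 0.11 (probe SD, 2 probes) in CNT-2. Nop58, the other scaffold protein, had -0.32 in CNT-2, -0.007 in CNT-1 and -0.021 in control. These 3 core proteins were near control in CNT-1 and lower in CNT-2, although Nop58 lay at 0.054 in CNT-2 minus control after quantile normalization. Rrp9, a protein particular to the U3 particle that takes part in cutting the precursor, lay at 0.046 in CNT-2 minus control and at 0.080 in CNT-1 minus control.

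Box H/ACA particles guide the conversion of uridine to pseudouridine, and their proteins also belong to telomerase. All 4 lay below control in CNT-2, beside 46.4% of all genes, with a median of -0.60. This median stayed below 0 under all scalings, the nearest value being -0.21 after quantile normalization. Nop10 had -0.66 in CNT-2, -0.20 in CNT-1 and 0.007 in control. Nhp2 had -0.63 in CNT-2, -0.060 in CNT-1 and -0.013 in control. Gar1 had -0.62 in CNT-2, -0.069 in CNT-1 and -0.031 in control. These 3 small partner proteins lay close together in CNT-2. Dkc1, the pseudouridine synthase itself, had -0.16 in CNT-2, 0.13 in CNT-1 and 0.073 in control, so it was the least low of the 4 in CNT-2 minus control at -0.24. Nolc1, a chaperone that escorts snoRNPs, lay at -0.12 ± 0.36 (probe SD, 3 probes) in CNT-2 minus control. Its probes lay at 0.28, -0.25 and -0.41, so the gene had no common direction.

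The small-subunit processome is the large particle that forms on the growing precursor and prepares the 40S subunit. Its measured factors spanned nearly the whole range of the nucleolar genes. Utp20, a very large scaffold protein, had -0.83 in CNT-2, -0.45 in CNT-1 and 0.026 in control. Its difference from control was -0.85 ± 0.32 in CNT-2 and -0.48 ± 0.39 in CNT-1 (probe SD, 3 probes). All 3 probes lay below control in both exposed columns, but in CNT-1 they ranged from -0.75 to -0.034, and 2 of them were away from 0 in the control, at -0.15 and 0.22. With the 1 probe near 0 in control, Utp20 lay at -0.54 in CNT-2 and -0.034 in CNT-1.

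Wdr43, Wdr75 and Heatr1 belong to the subcomplex that binds the precursor first and is tied to polymerase I transcription. Wdr43 had -0.63 in CNT-2, 0.095 in CNT-1 and -0.024 in control. Wdr75 lay at -0.47 and Heatr1 at -0.32 in CNT-2 minus control. All 3 were thus lower in CNT-2 and within 0.12 of control in CNT-1, although Heatr1 lay at 0.12 in CNT-2 minus control after quantile normalization. The subcomplex was not uniform, since its subunits Utp15 and Utp4, which are outside the nucleolar gene list, lay at 0.60 and -0.022 in CNT-2 minus control. Ddx10, a helicase whose yeast relative frees a snoRNA from the precursor, lay at -0.28 ± 0.041 (probe SD, 2 probes) in CNT-2 minus control. At the other end, Nop14 had 0.43 in CNT-2, 0.13 in CNT-1 and -0.003 in control, and Utp18 had 0.35 in CNT-2, 0.057 in CNT-1 and -0.026 in control. Both processome proteins lay above control in CNT-2 under every scaling tried. Noc4l, the partner of Nop14, lay at 0.007 and Utp3 at 0.041 in CNT-2 minus control, close to the median of all genes. These 2 genes, Rrp9 and the 60S factor Pes1 lay on the other side of control with 75th percentile centring, spike-in centring or quantile normalization.

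Of the 11 measured factors of 60S assembly, 8 lay below control in CNT-2 (72.7%, against 46.4% of all genes). Their median was -0.18, against 0.041 over all genes. At least 0.5 log2 units lower was 1 of the 11 (9.1%, against 16.1% of all genes). Rrs1, which helps to bring the 5S rRNA particle into the 60S precursor, was the lowest of all nucleolar genes. It had -0.83 in CNT-2, -0.11 in CNT-1 and 0.029 in control, and 8.4% of all genes lay lower in CNT-2 minus control. The helicase Ddx18 lay at -0.49 and Nop2, an rRNA cytosine methyltransferase, at -0.44 in CNT-2 minus control. Noc2l, whose yeast relative helps to move 60S precursors out of the nucleolus, lay at -0.24, and Nop16, a factor of early 60S precursors, at -0.23. The PeBoW complex, which is needed to cut the spacer rRNA on the 60S side, was not uniform, with Bop1 at -0.18, Pes1 at 0.036 and Wdr12 at 0.25 in CNT-2 minus control. Wdr12 lay below control, at -0.068, with 75th percentile centring. Gnl3, the GTP-binding nucleostemin, had -0.13 in CNT-2, 0.13 in CNT-1 and 0.010 in control, and Ftsj3, an rRNA methyltransferase, had -0.14 in CNT-2, 0.066 in CNT-1 and -0.021 in control. Ftsj3 lay at 0.14 in CNT-2 minus control after quantile normalization. Ddx56, a helicase, had 0.41 in CNT-2, 0.11 in CNT-1 and 0.058 in control, and was the highest 60S factor.

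The abundant nucleolar proteins with several tasks differed from each other. Mybbp1a, a regulator of rRNA transcription, lay at -0.46 in CNT-2 minus control. Nucleolin, Ncl, had -0.11 in CNT-2, 0.003 in CNT-1 and 0.010 in control. Nucleophosmin, Npm1, had 0.26 in CNT-2, 0.088 in CNT-1 and 0.002 in control, with its 3 probes at 0.22 to 0.31 in CNT-2 minus control. Npm1 thus lay above control in CNT-2, except with 75th percentile centring, which put it at -0.061. The helicase Ddx21, which acts at rRNA genes and on snoRNAs, lay at -0.38 ± 0.49 (probe SD, 3 probes). Its probes lay at -0.79, -0.52 and 0.16, so the direction of Ddx21 depends on the probe, and the gene lay at 0.038 after quantile normalization.

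**Figure D2:**
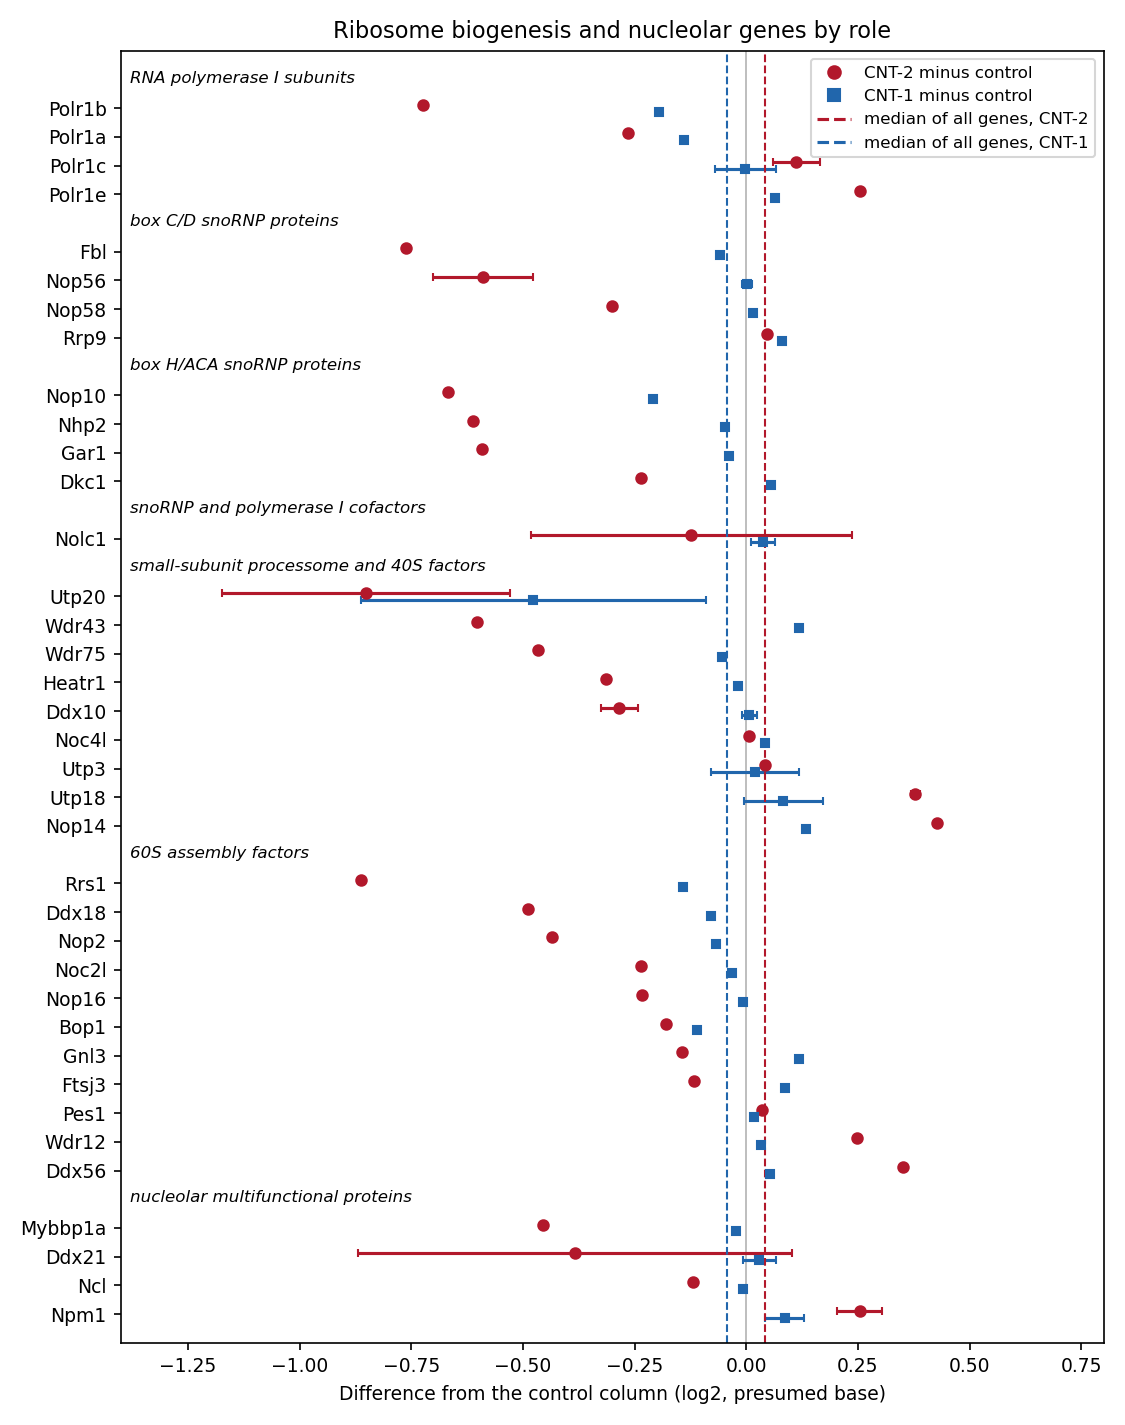
Difference from the control column (x axis, log2 with presumed base) for each of the 37 measured nucleolar genes, grouped by role, with CNT-2 as red circles, CNT-1 as blue squares, bars for the probe SD of genes with 2 or more probes, and dashed lines at the median of all genes in each comparison. In CNT-2 the box C/D and box H/ACA proteins other than Rrp9 lie between -0.76 and -0.24, while Nop14, Utp18 and Ddx56 lie to the right of 0.35.

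**Figure D3:**
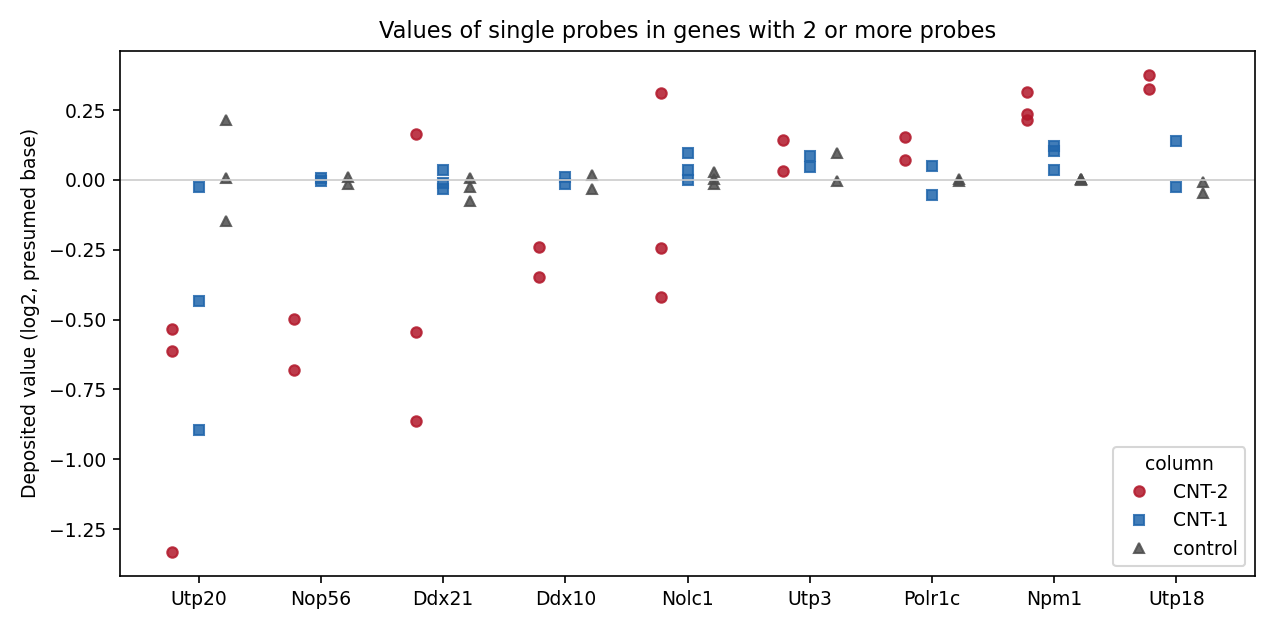
Deposited value (y axis, log2 with presumed base) of every probe in the 9 nucleolar genes with 2 or more probes, with CNT-2 as circles, CNT-1 as squares and control as triangles. The probes of Ddx21 and Nolc1 fall on both sides of 0 in CNT-2, whereas those of Nop56, Ddx10 and Npm1 stay on 1 side.

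The promoters are shown because CACGTG, the E-box to which MYC with its partner MAX is known to bind, was found near the start of several nucleolar genes. RefSeq sequences of build GRCr8, from 250 bases before to 50 bases after the start, matched 34 of the 37 genes. Bop1, Rrs1 and Wdr43, at -0.18, -0.86 and -0.60 in CNT-2 minus control, had no such sequence and are in neither group below. CACGTG, which reads the same on both strands, was present in 10 of 34 (29.4%), against 6.4% of all 33469 promoters of that length and 8.1% of those of the 13145 named genes with such a sequence. The 10 genes were Ddx18, Dkc1, Fbl, Gnl3, Mybbp1a, Nop2, Pes1, Utp18, Utp20 and Wdr75. Of them, 8 lay below 0 and 2 above 0 in CNT-2 minus control. Below 0 were also 26 of all 37 nucleolar genes (70.3%) and 46.4% of all genes. The median of the 10 genes was -0.45, against -0.18 for the 24 promoters without the motif. A match describes the letters and does not show binding. Below are the 2 lowest and the highest of these genes in CNT-2 minus control, with the motif in capitals.
Utp20, chr7:25102800-25103099, - strand: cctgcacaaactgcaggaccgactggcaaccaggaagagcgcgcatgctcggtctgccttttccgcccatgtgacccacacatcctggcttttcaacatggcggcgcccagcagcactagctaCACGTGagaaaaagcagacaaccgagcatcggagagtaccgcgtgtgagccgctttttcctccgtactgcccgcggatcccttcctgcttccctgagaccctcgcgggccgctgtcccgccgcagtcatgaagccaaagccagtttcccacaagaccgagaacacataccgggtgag
Fbl, chr1:92597157-92597456, + strand: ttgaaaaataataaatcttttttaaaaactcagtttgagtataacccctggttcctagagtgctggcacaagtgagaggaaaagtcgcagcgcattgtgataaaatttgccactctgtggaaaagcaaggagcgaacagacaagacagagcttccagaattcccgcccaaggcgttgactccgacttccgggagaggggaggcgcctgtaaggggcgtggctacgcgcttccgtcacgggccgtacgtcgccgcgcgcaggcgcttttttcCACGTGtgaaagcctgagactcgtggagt
Utp18, chr10:79335708-79336007, - strand: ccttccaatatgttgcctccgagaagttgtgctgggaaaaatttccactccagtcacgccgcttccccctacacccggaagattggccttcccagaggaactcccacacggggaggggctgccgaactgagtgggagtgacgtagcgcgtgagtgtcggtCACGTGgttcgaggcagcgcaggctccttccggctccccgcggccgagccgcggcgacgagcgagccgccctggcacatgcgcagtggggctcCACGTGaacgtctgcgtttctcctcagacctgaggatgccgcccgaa
Counted from the start, the motif began at base -127 in Utp20, at base 22 in Fbl, and at bases -90 and 4 in Utp18, which lay at 0.38 in CNT-2 minus control. The motif was therefore found near the start of genes at both ends of the range. Searched on either strand, CGCGAGA was present in 5 of the 34 promoters (14.7%, against 2.4% of all promoters and 3.9% of those of named genes). CCAAT was present in 8 (23.5%, against 37.5% and 38.0%) and GGCGGG in 20 (58.8%, against 32.0% and 50.4%). For CGCGAGA the medians with and without the motif were 0.041 and -0.26 in CNT-2 minus control, the opposite order to CACGTG. For CCAAT they were -0.12 and -0.24, and for GGCGGG -0.24 and -0.20. The motifs were chosen after the values were seen.

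Myc itself, measured by 1 probe, had -1.39 in CNT-2, -0.46 in CNT-1 and 0.068 in control. The difference was -1.46 in CNT-2 minus control and -0.53 in CNT-1 minus control. After quantile normalization these were -0.90 and -0.62. In CNT-2 minus CNT-1 Myc lay at -0.93 as deposited and at -0.28 after quantile normalization. Over the 11 measured genes of the MYC network, 2 were at least 1 log2 unit lower and 1 higher in CNT-2 minus control, beside 6.56% and 10.1% of all genes, with a median of -0.004. After quantile normalization 1 was lower and 1 higher, beside 3.42% and 5.43% of all genes. With 75th percentile centring 4 were lower, beside 11.5% of all genes. Mxd3 and Mxi1, which encode MAX partners that repress E-box genes, lay at -2.37 and -0.96, and at -1.39 and -0.21 after quantile normalization. Mlxip and Mlx, which form a nutrient-responsive E-box factor, lay at 2.06 and 0.84, and Mycl, a relative of Myc, at 0.86. The network thus held single differences in both directions. As deposited, those of Myc, Mxd3, Mxi1 and Mlxip were larger than any among the nucleolar genes. No relation between Myc and the nucleolar genes can be tested across 3 columns.

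Other genes of the pathway were taken from 4 lists that hold none of the 37 genes. Of their 115 measured genes, 6 were at least 1 log2 unit lower and 1 was higher in CNT-2 minus control, beside 6.56% and 10.1% of all genes, and the median was -0.055. After quantile normalization the median was 0.032 and 1 gene was lower and 1 higher, beside 3.42% and 5.43% of all genes. Exosome and rRNA trimming genes, which degrade and shorten precursor RNA, were lowest, with a median of -0.35 that stayed below 0 under all scalings. Of these 14 genes, 4 were at least 1 log2 unit lower and 0 higher, beside 6.56% and 10.1% of all genes. Ring and cap subunits of the exosome had -1.86 for Exosc7, -1.42 for Exosc8 and -1.33 for Exosc2 in CNT-2. In CNT-1 they had 0.043, 0.063 and -0.071, so the low values were in the CNT-2 column. Each was measured by 1 probe. After quantile normalization they lay at -1.04 for Exosc7, -0.69 for Exosc8 and -0.69 for Exosc2 in CNT-2 minus control. With that scaling 1 of the 14 was at least 1 log2 unit lower, beside 3.42% of all genes. Isg20l2 lay at 0.24, Exosc4 at 0.17 and Eri1 at -0.16 in CNT-2 minus control, the highest of that list. Isg20l2 and Exosc4 lay at -0.074 and -0.15 with 75th percentile centring, and Eri1 at 0.27 after quantile normalization.

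Over 10 further factors of polymerase I the median difference between CNT-2 and control was 0.041, equal to that of all genes and below 0 with 75th percentile or spike-in centring. At least 1 log2 unit lower was 1 of the 10, beside 6.56% of all genes. That gene was Taf1d, a subunit of the promoter selectivity factor, at -1.01 ± 0.083 (probe SD, 2 probes). Polr1g lay at -0.77 and Ubtf, the upstream binding factor, at -0.68 ± 0.33 (probe SD, 2 probes), while Taf1c, Taf1a and Polr1d lay at 0.48, 0.33 and 0.32. After quantile normalization Taf1d lay at -0.17, Ubtf at -0.14 and Polr1g at -0.40. With that scaling 0 of 10 were past 1 log2 unit, beside 3.42% of all genes lower and 5.43% higher. Other selectivity factor subunits lay on the opposite side from Taf1d. Further factors of 40S maturation had a median of -0.053, or 0.024 after quantile normalization. Of these 43 genes, 1 was lower and 1 higher by at least 1 log2 unit, beside 6.56% and 10.1% of all genes. Rcl1 lay at -1.10, Wdr3 at -0.95 and the acetyltransferase Nat10 at -0.61. Riok3, an atypical kinase, lay at 2.62, Utp15 at 0.60 and Pno1 at 0.31. After quantile normalization Rcl1, Wdr3 and Nat10 lay at -0.58, -0.50 and -0.28, and Riok3 at 1.54, while Pno1 lay at -0.004 with 75th percentile centring. The 48 further factors of 60S maturation and export had a median of 0.021, which was below 0 with any of the 3 centrings. Past 1 log2 unit were 0 of the 48, beside 6.56% of all genes lower and 10.1% higher. Rrp1b, Pelp1 and Nvl were lowest at -0.70, -0.64 and -0.55, and the subunit-joining controls Eif6 and Sbds lay at 0.77 and 0.62, with Nol12 at 0.71. Nvl lay at 0.25 after quantile normalization.

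Cytosolic ribosomal proteins, the cargo of this pathway, were measured for 73 genes, with a median of -0.028 in CNT-2 minus control, or 0.059 after quantile normalization. Past 1 log2 unit was 1 of them, Rps26 at -2.46, beside 6.56% of all genes lower and 10.1% higher. Rpl34 and Rpl15 followed at -0.99 and -0.74, with a probe SD of 0.78 for the 2 probes of Rpl15, and Rpl10, Rplp1 and Rps20 were highest at 0.28, 0.21 and 0.18. After quantile normalization Rps26 lay at -1.28, Rpl34 at -0.34 and Rpl15 at -0.24. With 75th percentile centring Rpl10, Rplp1 and Rps20 lay at -0.036, -0.11 and -0.14.

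**Figure D4:**
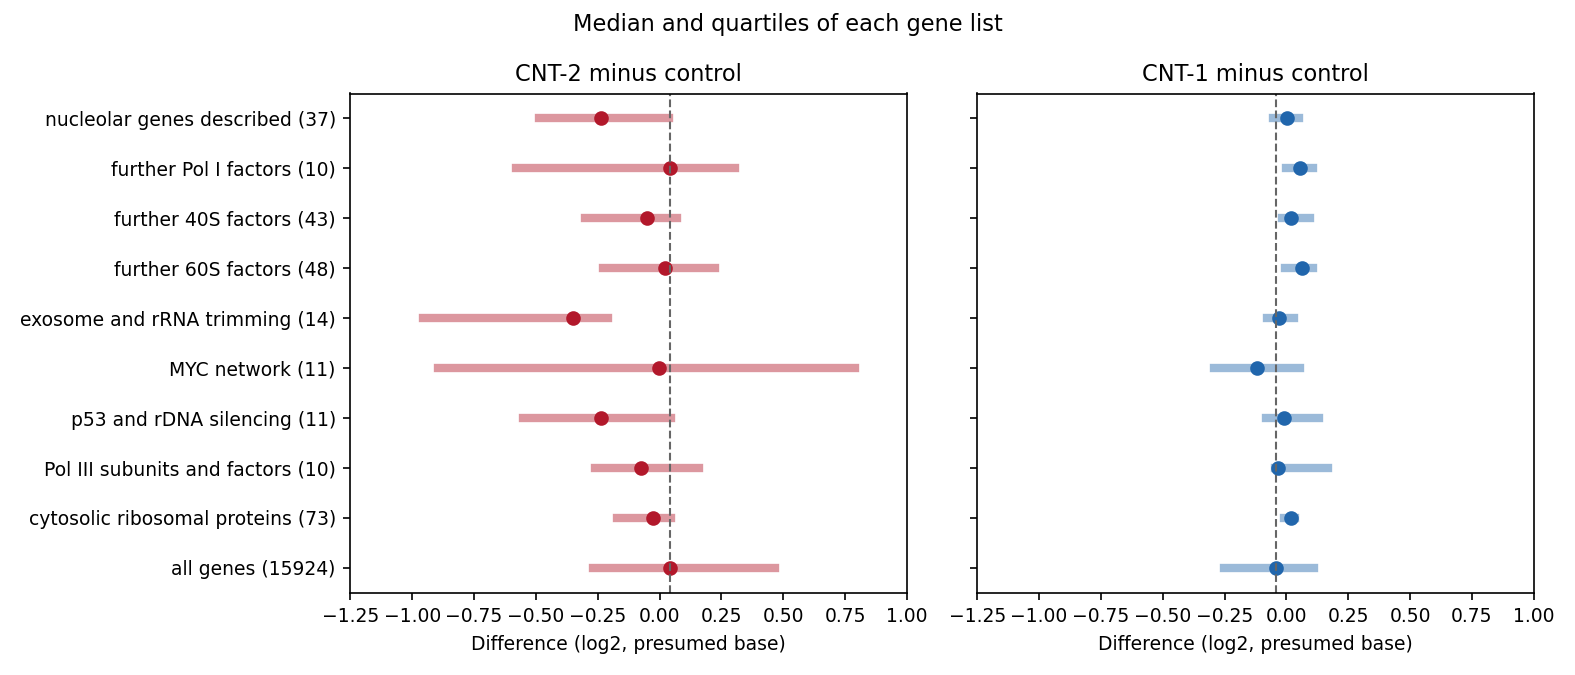
Median (point) and quartiles (bar) of the difference (x axis, log2 with presumed base) for the nucleolar genes and each further list, with the number of measured genes in parentheses, for CNT-2 minus control (left) and CNT-1 minus control (right), and a dashed line at the median of all genes. In CNT-2 the exosome list (-0.35), the nucleolar genes (-0.24) and the p53 and rDNA silencing list (-0.24) lie farthest to the left, while in CNT-1 their medians lie within 0.05 of the line.

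In CNT-1 the nucleolar genes lay close to control in the values as deposited. Their median was 0.002 in CNT-1 minus control, against -0.043 over all genes, and 18 of 37 lay below 0, against 57.7% of all genes. At least 1 log2 unit lower were 0 of 37, against 2.15% of all genes, and higher were also 0 of 37, against 1.16%. Even at 0.5 log2 units the counts were 0 and 0, against 8.18% and 4.96% of all genes. After quantile normalization the nucleolar median was 0.14, against 0.078 over all genes, and 10 of the 37 genes changed sign. As deposited, 31% of all genes lay at or below -0.20 and 84% at or below 0.20. Of the 37 nucleolar genes, 35 were within 0.2 of control. The exceptions were Utp20, whose probe spread is given above, and Nop10, at -0.48 and -0.21. Polr1b, Rrs1 and Polr1a followed at -0.20, -0.14 and -0.14. The highest were Nop14 at 0.13, Wdr43 at 0.12, Gnl3 at 0.12, Ftsj3 at 0.087 and Npm1 at 0.086 ± 0.044 (probe SD, 3 probes).

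Of the 37 genes 11 lay below the median of all genes in CNT-1 minus control, against 50.0% of all genes. That count depended on the probes compared. Of the nucleolar gene probes 48 of 50 were within 0.1 of 0 in the control column, against 72.6% of all gene probes, and with such probes alone 18 of 37 genes lay below the median of all genes. The negative control probe, which reports background, lay at -0.27 in CNT-1 minus control and -0.10 in CNT-2 minus control, and none of the 50 probes had a control value within 0.02 of it, against 14.5% of all gene probes.

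Setting CNT-2 directly against CNT-1, which uses the CNT-2 column again but not the control column, gave a median of -0.26 over the nucleolar genes, against 0.15 over all genes. Of the 37 genes 28 lay below 0, against 36.7% of all genes, and 31 lay below the median of all genes, against 49.9% of all genes. At least 1 log2 unit lower were 0 of 37, against 4.65% of all genes, and higher were 0 of 37, against 9.32%. At 0.5 log2 units 7 of 37 genes were lower (18.9%, against 12.7% of all genes). Rrs1 and Wdr43 lay at -0.72, Fbl at -0.71, Nop56 at -0.59 ± 0.12 (probe SD, 2 probes) and Nhp2 at -0.57. The highest were Ddx56 at 0.30, Utp18 at 0.30 ± 0.079 (probe SD, 2 probes), Nop14 at 0.29, Wdr12 at 0.22 and Polr1e at 0.19. The same 5 genes all lay below 0 with 75th percentile centring, where Utp18 was at -0.028, Ddx56 at -0.025, Nop14 at -0.029, Wdr12 at -0.11 and Polr1e at -0.13.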

How the data were processed

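Total RNA from 3 groups of NR8383 cells was converted to Cy3-labelled cRNA for 1-colour Agilent arrays, per the labels' protocols. Agilent Feature Extraction, version 10.7.3.1, is named in the submitters' processing notes. The authors deposited 41103 probe values per group in 3 columns. The deposited values have both signs and column medians near 0, and were taken as log2 relative to a per-probe baseline that is none of the columns. No label or header states the base, baseline, normalization or any averaging. Higher values were read as more RNA.

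Probes were named from the platform annotation (20932 with 1 symbol, 0 with several, 20171 without) and updated through RefSeq accessions of GRCr8. Columns were subtracted per probe and averaged per gene with Python 3.11.15, numpy 2.4.6 and pandas 2.3.3. Probe SD is the spread, over the probes of 1 gene, of the difference between 2 columns, and not a spread over replicates. The differencing was tested on simulated data. With 1 column per group no test was made. The number of arrays limits the precision.

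The genes, the lists and the alternatives were chosen with earlier results of these data known. Named genes were the 5 highest and 5 lowest of each comparison, members of described complexes, the 3 highest and 3 lowest of each further list in CNT-2 minus control, and Myc. The grouping by role, the promoter motifs and the snoRNA host genes were chosen after the values were seen. The labels give 1 shared replicate number, which was not used. CNT-2 minus control and CNT-1 minus control share the control column.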

Additional observations from a re-analysis of the deposited data

How the results depend on the processing

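No paired analysis was possible because each group had 1 column and no test was made, and for the same reason no replicate could be left out. A value was counted as moved when it shifted by more than the median probe SD over all genes, which was 0.19 (CNT-2 against control), 0.076 (CNT-1 against control) and 0.17 (CNT-2 against CNT-1). In CNT-2 minus control the nucleolar median was -0.55 with 75th percentile centring, -0.48 with spike-in centring and -0.046 with quantile normalization, where it was -0.068 relative to all genes. The number at least 2-fold lower was 4 with 75th percentile centring (all genes 11.5%), 3 with spike-in centring (10.2%), 1 with the probe of largest difference (7.84%), and 9 with a threshold of either 1.5-fold (13.8%) or 0.5 (16.1%). With the 9 genes of 2 or more probes only, 5 lay below 0 and 6 below the median of all such genes. In CNT-1 minus control the median was 0.14 with quantile normalization. The number below 0 was 11 with median centring, beside 7960 of all 15924 genes, and 8 with quantile normalization, beside 6698 of 15924. It was 2 of 9 with genes of 2 or more probes. The number below the median of all genes was 18 with probes near 0 in control and 1 of 9 with genes of 2 or more probes. In CNT-2 minus CNT-1 the median was -0.58 with 75th percentile centring and -0.54 with spike-in centring, and -0.19 relative to all genes with quantile normalization. The number lower was 3 with 75th percentile centring (8.68%), 2 with spike-in centring (8.01%), 4 with 1.5-fold (10.6%) and 7 with 0.5 (12.7%), and with genes of 2 or more probes 5 lay below 0 and 7 below the median. For the counts with genes of 2 or more probes, no share below 0 over all such genes is given here. In CNT-2 minus control quantile normalization changed the sign of 8 of the 37 genes and moved 18. With 75th percentile centring 8 changed sign and 37 moved. In CNT-1 minus control quantile normalization changed the sign of 10 and moved 25. Of the 9 genes at least 0.5 lower in CNT-2 minus control, 0 changed sign under any alternative. These 9 were picked as the lowest in that same comparison. Every centring lowered all values in it, and a threshold left them as they were, so neither could have turned a sign. The cause of the shifts between alternatives was not tested.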

Other observations

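Some nucleolar genes carry snoRNA genes inside them. In the GRCr8 annotation, 5 of the 37 measured genes hold at least 1, namely Nop56, Nop58, Ncl, Wdr43 and Gnl3. All 5 lay below control in CNT-2, with a median of -0.30 and a range of -0.60 to -0.12. Of the other 32, 21 did so, with a median of -0.24, beside 46.4% of all genes. The split was chosen after the values were seen, and snoRNA hosts outside the 37 genes were not examined. Nop58 changed sign with quantile normalization, as given above. Among the snoRNA genes in these hosts are Snord57, Snord86 and Snord110 in Nop56, and Snord19 and Snord69 in Gnl3, and their own RNAs were not analysed here.

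RNA polymerase III makes 5S rRNA and tRNAs. Its 10 measured subunits and factors had a median of -0.074 in CNT-2 minus control and -0.032 in CNT-1 minus control. Past 1 log2 unit were 0 in either. Of all genes, 6.56% were lower and 10.1% higher in CNT-2 minus control, and 2.15% and 1.16% in CNT-1 minus control. Polr3gl lay at -0.69, Brf1 at -0.31 and Polr3f at -0.27 ± 0.62 (probe SD, 3 probes) in CNT-2 minus control, while Polr3d, Polr3e and Polr3b lay at 0.73, 0.47 and 0.17. Polr3b lay at -0.14 with 75th percentile centring, and Brf1 at -0.032 after quantile normalization. Genes of the nucleolar stress pathway and of rDNA silencing, 11 measured, had a median of -0.24 in CNT-2 minus control. Past 1 log2 unit were 0 of the 11, beside 6.56% of all genes lower and 10.1% higher. With 75th percentile centring 2 of the 11 and 1 of the polymerase III genes were at least 1 log2 unit lower, beside 11.5% of all genes. Suv39h1, a histone methyltransferase, lay at -0.99, Maf1, a repressor of polymerase III, at -0.69 and Cdkn2a, whose locus encodes the nucleolar protein ARF, at -0.66. Cdkn2a had -0.63 in CNT-2, 0.48 in CNT-1 and 0.032 in control, so the exposed columns lay on opposite sides of control. Mdm2, the ubiquitin ligase of p53, lay at 0.89 ± 0.38, Cdkn1a, a p53 target that halts the cell cycle, at 0.66 ± 0.18 (probe SD, 2 probes each) and Baz2a, a subunit of the rDNA silencing complex, at 0.30 in CNT-2 minus control. Baz2a lay at -0.014 with 75th percentile centring. After quantile normalization Maf1 lay at 0.060, Suv39h1 at -0.50 and Cdkn1a at 0.29.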
